A study of Mus musculus with 3 samples.

Results

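The genes described here encode the subunits of mitochondrial oxidative phosphorylation. They were chosen by symbol alone, as single-gene probe sets whose mouse symbol begins with Nduf, Uqcr, Atp5 or Cox4 to Cox8, or is Sdha, Sdhb, Sdhc, Sdhd, Cycs or Cyc1. This gave 73 genes of the 8251 named on the array, through 101 of 10833 single-gene probe sets. Of the 73, 69 encode subunits, and 4 encode other proteins that the symbols take in: the complex I assembly factors Ndufaf1 and Ndufaf4, the supercomplex assembly protein Cox7a2l and cytochrome c (Cycs), the mobile electron carrier. There were 31 genes of complex I, 4 of complex II, 8 of complex III, 15 of complex IV and 14 of complex V, plus Cycs. Another 10 probe sets match several genes, at least one of them with such a symbol, and were not used. The 13 subunits encoded in mitochondrial DNA were not analysed here, since 0 single-gene probe sets carry their symbols.

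The 3 arrays hold total RNA of the CA1 field of the hippocampus, the output field of pyramidal neurons that contextual memory depends on. All came from young male mice of the inbred strain C57BL/6J, with no transgene or drug in the labels, after contextual fear conditioning. The mice spent 2 min in a new chamber before a foot shock of 1 s at 0.5 mA, had this cycle 3 times in all, and were returned to their cages 1 min later. RNA was taken 6 h after the final shock. This is the only group, so the arrays show levels and the spread between replicates, and no effect of conditioning was estimated. The labels number the arrays 1, 2 and 3 and do not say whether each held 1 animal or a pool, so p-values below measure only the spread between these samples, which may be technical. The deposited signals were on a common scale, with medians from 171 to 177. All 3 measurable CA1 pyramidal markers, Wfs1, Pou3f1 and Dcn, exceeded 175 on every array. So did 3 of 4 markers of the neighbouring fields CA3 and CA2 (Nptx1, Bok and Rgs14). Of 4 genes listed for dentate granule cells, Calb1 and Dsp exceeded it on every array, Dsp narrowly on array 3 at 179.5. The listed genes Prox1 and Tdo2 were under it on every array. Whether the listed genes are particular to their fields was not tested.

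Oxidative phosphorylation makes most of the ATP of a neuron. Complex I takes electrons from NADH and complex II from succinate, ubiquinone passes them to complex III, and cytochrome c carries them to complex IV, which reduces oxygen. Complexes I, III and IV pump protons out of the matrix, and complex V, the ATP synthase, uses their return to make ATP. Neurons spend much of this ATP on ion pumping at synapses and along dendrites.

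Most of these genes gave a signal above threshold. The threshold was 175, the median of all deposited values, and it stands in for a detection call. By their mean over the arrays 64 of 73 genes were above it, against 59.1% of all named genes, and 62 were above it on all 3 arrays, against 52.9%. The median of the members' mean signals was 2749, compared with 259.9 over all named genes. All 8 genes of complex III, all 4 of complex II and Cycs were above threshold by their mean, as were 27 of 31 of complex I, 11 of 15 of complex IV and 13 of 14 of complex V. Signals depend on the probes as well as on the transcript, so an order of signals between genes is not an order of transcript levels. In tissue RNA, fewer cells of a type and less RNA per cell cannot be told apart.

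**Figure D1:**
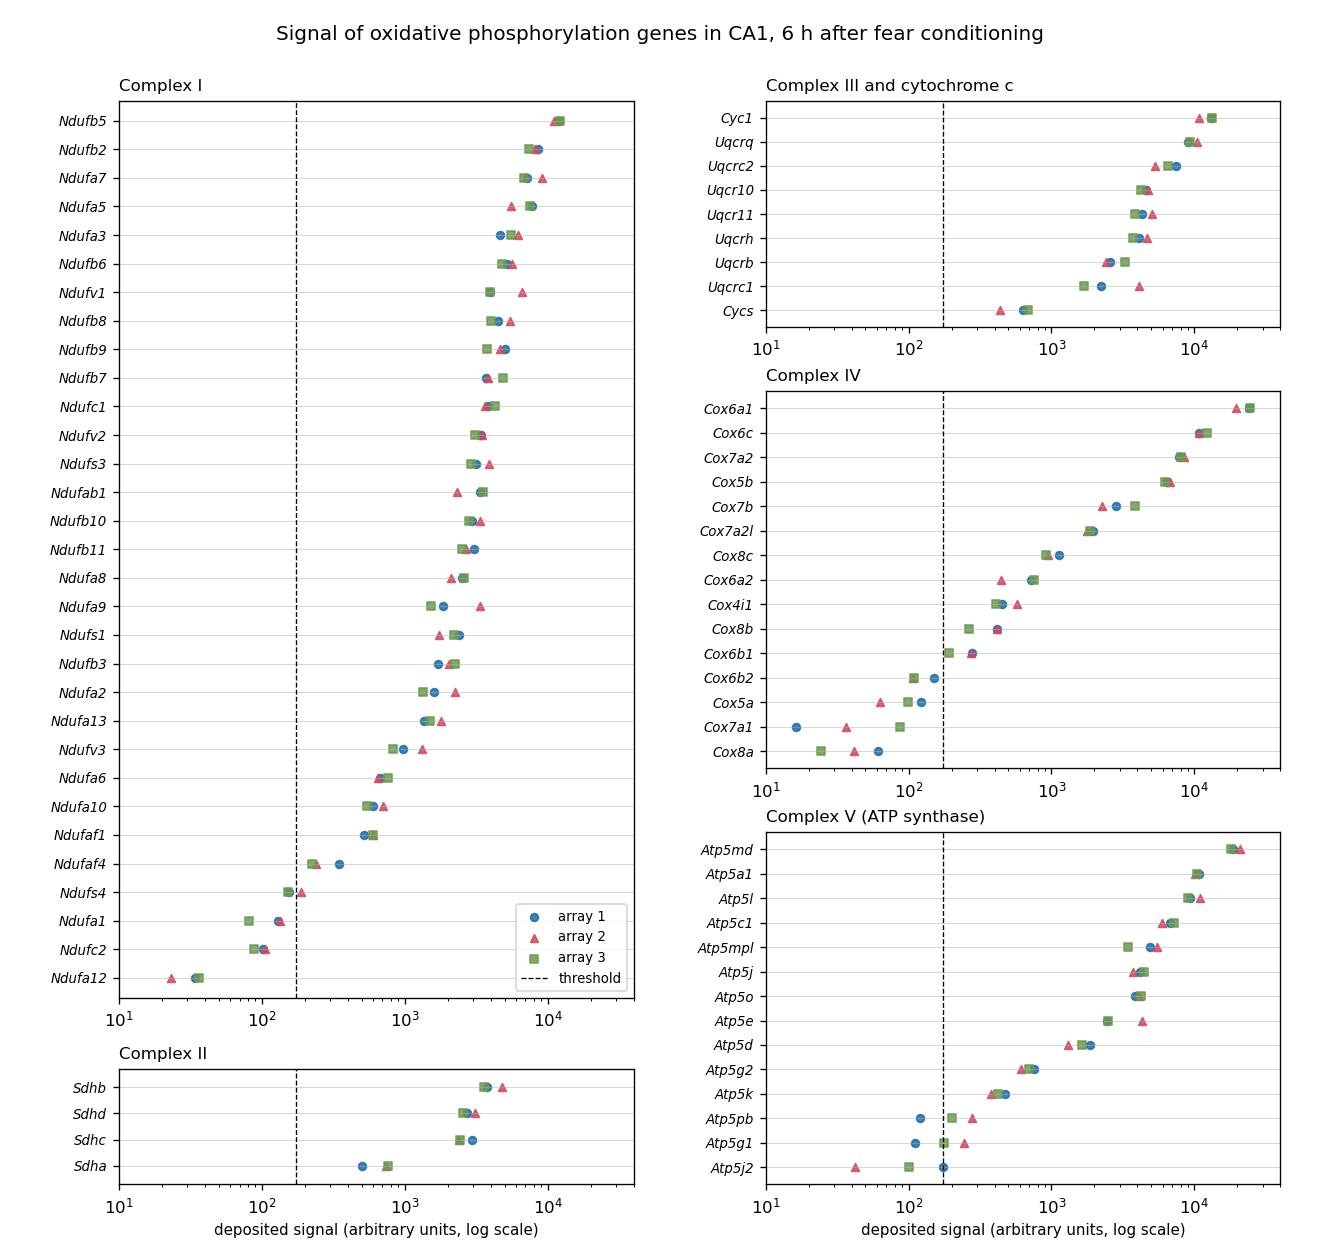
Deposited signal of each member gene at its brightest probe set (arbitrary units, log axis) on arrays 1, 2 and 3, by complex, with Cycs shown beside complex III. The dashed line is the threshold of 175. Most genes lie right of it with the 3 arrays close together, and 9 genes have a mean left of it.

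Nuclear genes of the respiratory chain are known targets of the transcription factors NRF-1 and GABP (also called NRF-2). RefSeq promoters of build GRCm38.p6 were used with 1 chromosome left out, for members and for all genes alike. In this set promoters were present for 59 of the 73 genes, and the others are Atp5a1, Atp5mpl, Cox4i1, Cox6a2, Cox6c, Cox8c, Cyc1, Ndufa2, Ndufb9, Ndufs1, Sdhc, Uqcrb, Uqcrc2 and Uqcrq. The 250 bases before each annotated start were searched on both strands for GCGCATG, part of the NRF-1 consensus, for CCGGAAG, a GABP-type site, and for AAGATGG, a YY1-type site. The NRF-1 letters were present for 11 of 59 genes (18.6%), against 3.68% of the 27025 genes searched. That string replaced a longer one after the shares of both had been seen, so this comparison is only a description. The GABP letters were present for 12 of 59 (20.3%), against 7.83%. The YY1 letters were present for 1 of 59 (1.69%), the coupling factor 6 gene Atp5j, against 5.18%. The 50 bases after each start were not searched, so these shares do not cover sites there. The member windows were also richer in G and C, at a median of 57.6% against 52.4% over all windows, and the part of base composition in these shares was not tested. The windows of 4 genes are shown: Cox6a1, which holds both kinds of letters, Cycs, Uqcrc1 and Ndufa9. At the brightest probe sets, Uqcrc1 and Ndufa9 had the lowest p of the members in the variance test below. None of the 3 strings was found in their windows. This held for most members, since any of the strings was present for 20 of 59 (33.9%), against 15.4% of all genes. Capitals mark the strings, and each window ends at the base before the start. In Cox6a1 the NRF-1 letters match 2 times with overlap, once on each strand. The windows lie at chr5:115348959-115349208, reverse strand for Cox6a1, chr6:50566570-50566819, reverse strand for Cycs, chr9:108936398-108936647, forward strand for Uqcrc1 and chr6:126849145-126849394, reverse strand for Ndufa9.
Cox6a1: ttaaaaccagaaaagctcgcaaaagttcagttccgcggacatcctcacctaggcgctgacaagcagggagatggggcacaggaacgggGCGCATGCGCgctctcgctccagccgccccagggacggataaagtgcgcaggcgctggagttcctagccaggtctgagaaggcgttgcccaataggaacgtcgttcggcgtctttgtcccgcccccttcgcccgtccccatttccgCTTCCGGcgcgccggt
Cycs: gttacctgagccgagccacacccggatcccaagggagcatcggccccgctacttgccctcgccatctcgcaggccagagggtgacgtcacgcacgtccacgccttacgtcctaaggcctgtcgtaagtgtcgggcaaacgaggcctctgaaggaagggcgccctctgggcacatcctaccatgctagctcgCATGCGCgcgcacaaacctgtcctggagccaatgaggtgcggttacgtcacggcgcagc
Uqcrc1: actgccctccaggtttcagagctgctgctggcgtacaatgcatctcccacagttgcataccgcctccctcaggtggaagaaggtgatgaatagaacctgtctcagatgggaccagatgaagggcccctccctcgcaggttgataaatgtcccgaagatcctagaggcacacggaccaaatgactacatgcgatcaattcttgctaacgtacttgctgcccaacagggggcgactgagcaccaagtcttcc
Ndufa9: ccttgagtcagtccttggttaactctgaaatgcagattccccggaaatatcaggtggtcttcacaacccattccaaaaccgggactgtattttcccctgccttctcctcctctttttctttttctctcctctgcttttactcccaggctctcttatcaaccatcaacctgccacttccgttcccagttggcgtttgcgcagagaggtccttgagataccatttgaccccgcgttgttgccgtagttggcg
A match is a description of these letters, not evidence of a binding site, and no binding was measured in these samples.

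Complex I was represented by 4 of its core subunits, 25 accessory subunits and the 2 assembly factors. Ndufv1, which carries the flavin that accepts electrons from NADH, gave 3982, 6597 and 3934 on arrays 1, 2 and 3. Ndufv2, its iron-sulfur partner, gave 3400.3, 3499.8 and 3132. Ndufs1, the largest iron-sulfur subunit, gave 2401, 1746 and 2202. Array 2 was thus the highest for Ndufv1 and the lowest for Ndufs1, while the 3 arrays of Ndufv2 were within 1.08-fold after scaling. Fold spans, here and for the other complexes, compare the highest with the lowest array after all arrays were scaled to a common median, so they can differ from the ratio of the deposited signals printed beside them. Ndufs3, a core subunit near the ubiquinone site, gave 3150, 3901 and 2920.1.

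The accessory subunits of complex I surround the core and are needed for its assembly and stability. Those with the brightest probe sets are given first, which is no ranking of transcripts. Ndufb5 of the membrane arm gave 12064, 11123 and 12161, and Ndufb2, also of the membrane arm, gave 8553, 8111 and 7434. After scaling their arrays spanned 1.13-fold and 1.12-fold. Ndufa7 gave 7176, 9151 and 6808, highest on array 2. Ndufa5, of the ubiquinone-binding module, gave 7832, 5579 and 7520.5, lowest on array 2. Among brightest probe sets above threshold, the widest range in complex I belonged to Ndufa9, a subunit beside the ubiquinone site, at 1843, 3363 and 1537. Its array 2 stood above both others, and its highest and lowest scaled signals were 2.11-fold apart. Ndufa2, at 1598, 2254 and 1340, and Ndufv3, at 976, 1317 and 831, had the same order of arrays. Ndufab1, the mitochondrial acyl carrier protein, went the other way, at 3345, 2340.3 and 3560.3.

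Other complex I subunits varied less. Ndufb6 gave 5206, 5615 and 4811, Ndufb10 gave 2979, 3390.4 and 2828 and Ndufb7 gave 3701, 3821 and 4872. In each of these 3 membrane-arm genes the arrays lay within 1.5-fold of each other. The same held for the brightest probe sets of Ndufa3, Ndufa6, Ndufa8, Ndufa10, Ndufa13, Ndufb3, Ndufb8, Ndufb9, Ndufb11 and Ndufc1. Their scaled ratios of highest to lowest ran from 1.17 for Ndufb11 to 1.36 for Ndufb3. The assembly factor Ndufaf1 gave 519, 598 and 603, and Ndufaf4 gave 345, 239 and 226, highest on array 1.

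Of the complex I genes, 4 had a mean under threshold. Ndufa1 gave 129, 135 and 81.4, Ndufc2 gave 101, 106 and 87.7 and Ndufa12 gave 33.9, 23.2 and 36.5. Ndufs4, which stabilises the NADH-binding module, gave 154, 189.6 and 153, above threshold on array 2 alone. These are ordinary subunits of the complex, so a signal under threshold is not read as absence of the transcript. Among the 9 members under threshold only Ndufa12 was at or below the highest of 15 control probe sets for bacterial transcripts on every array, which were at 54.1, 115 and 55.6.

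Complex II, which links the citric acid cycle to the chain, was measured in full. Its flavoprotein gene Sdha gave 499, 743 and 770.4, lowest on array 1. The iron-sulfur subunit gene Sdhb gave 3790.3, 4837 and 3604, highest on array 2. The membrane anchor genes Sdhc and Sdhd gave 2942, 2408 and 2432, and 2734, 3101 and 2544. Sdhb and Sdhd shared an order of arrays, with array 2 highest and array 3 lowest, and Sdha and Sdhc each had another. Their scaled ratios of highest to lowest ran from 1.18 to 1.59.

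In complex III, Cyc1, which encodes cytochrome c1 and passes electrons to cytochrome c, gave 13139, 10705 and 13210.2. Uqcrq, a small subunit, gave 9001, 10387 and 9365, and Uqcr10 gave 4596, 4719.5 and 4229. After scaling these 3 genes spanned 1.28-fold, 1.15-fold and 1.08-fold over the arrays. The core proteins 1 and 2, which flank the complex on its matrix side, differed in order. Uqcrc1 gave 2223, 4085 and 1686, so that array 2 stood above both others, and its scaled signals spanned 2.34-fold. Uqcrc2 gave 7434, 5335 and 6514, lowest on array 2. Uqcrb, the ubiquinone-binding subunit gene, gave 2573, 2407 and 3249.8, highest on array 3, and the hinge protein gene Uqcrh and Uqcr11 spanned 1.21-fold and 1.28-fold. Cycs gave 634, 434 and 683, lowest on array 2, a span of 1.63-fold.

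Complex IV contains subunits with tissue isoforms, and these probe sets divided between both sides of the threshold. Cox6a1, the general form, gave 24170.1, 19581 and 24454, and Cox6a2, the heart and skeletal muscle form, gave 724, 444 and 759, also above threshold on all arrays and, like Cox6a1, lowest on array 2. The general form Cox7a2 gave 7760.2, 8508 and 8058, whereas the muscle form Cox7a1 was under threshold at 16.3, 36.6 and 87.3. Cox6b1 gave 279, 273 and 192, and the testis form Cox6b2 was under threshold at 152, 107 and 109. For subunit 8 the calls were the other way. The general form Cox8a was under threshold at 61.6, 41.5 and 24.3, while the muscle form Cox8b gave 417, 413 and 266 and the testis form Cox8c gave 1132, 952 and 917. Second probe sets of the last pair were under threshold on every array, at 66.2 ± 17.5 for Cox8b and 16.0 ± 5.23 for Cox8c (mean ± SD, n = 3), so these calls depend on the probe set.

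Beside these isoforms, all arrays were above threshold for 3 of 9 striated muscle markers, Acta1, Actc1 and Myh7, while 4 were under it on every array, among them the cardiac genes Myh6, at 16.1 ± 11.3, and Tnni3, at 63.4 ± 74.7. The summed signal of the 9 ran from 1594 to 1740.3. Of 6 testis germ cell markers 1 was above threshold on all arrays, Tnp1, and 4 were under it on every array, among them the protamine gene Prm2, at 50.7 ± 35.2. Their summed signal ran from 918 to 1311. The part of such cells in the isoform signals was not tested. The probe sets of Actc1, Myh7 and Tnp1 carry suffixes for probes that may be shared with related sequences or were chosen under relaxed rules. The brightest probe sets of Cox6a1, Cox6b1, Cox6b2 and Cox8b do too.

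Other complex IV subunits have a single form in most tissues. Cox6c gave 10748, 10815 and 12208, and Cox5b, the zinc-binding subunit, gave 6467, 6725 and 6231. The scaled span of Cox5b, 1.04-fold, was the narrowest of all measured members, an order that holds for the scaled signals and not for the deposited ones. Cox7b gave 2813, 2275 and 3844, highest on array 3 and lowest on array 2. Cox4i1, the general form of the largest nuclear-encoded subunit, gave 452, 575 and 411. Cox5a, an obligatory subunit, was under threshold on both of its probe sets, at 121, 63.3 and 99.3 for the brighter. The supercomplex protein gene Cox7a2l gave 1958, 1764 and 1873, a scaled span of 1.11-fold.

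In complex V, genes of the rotary F1 head and of the membrane part were measured. Atp5a1, the alpha subunit of the catalytic head, gave 10832, 10096 and 10517, and Atp5c1, the gamma subunit of its rotor, gave 6709, 5944 and 7208. Atp5md, a small membrane subunit also called DAPIT, gave 18731, 20875 and 17978. Atp5l, subunit g, gave 9305, 10950.2 and 9010.5. Each of these 4 genes stayed within 1.5-fold over the arrays. Atp5e, the epsilon subunit, gave 2429.9, 4319 and 2490.5, with array 2 above both others by over 1.5-fold. Atp5d, the delta subunit, gave 1876, 1296 and 1624 at its brightest probe set, lowest on array 2. The membrane proteolipid gene Atp5mpl gave 4873, 5476 and 3427, lowest on array 3.

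The c-ring of complex V, which turns as protons pass, is encoded by several genes for the same mature protein. Atp5g2 gave 757, 616 and 695, above threshold on each array. Atp5g1 had a mean of 177, barely above threshold, from 111, 245 and 176. Atp5pb, subunit b of the stator stalk, gave 119.9, 276 and 202. Both Atp5g1 and Atp5pb lay under threshold on array 1 and were highest on array 2, so their spans of 2.2-fold and 2.3-fold rest on weak signals. Atp5j2, subunit f, was under threshold by its mean, at 176, 42.5 and 101. The stalk genes Atp5j and Atp5o and the subunit e gene Atp5k spanned 1.23-fold, 1.14-fold and 1.25-fold.

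Several probe sets were present for 21 of the genes, and they often differed in level. In 14 of the 21 genes at least 1 probe set was above threshold and at least 1 under it, and 3 genes, Cox5a, Cox6b2 and Ndufa1, had none above. The other 4 had all their probe sets above. In 6 genes 2 or more probe sets were above threshold. After scaling, the highest array was common to the probe sets of 1 of these 6 genes, Ndufa3, and the lowest array to those of 2, Atp5c1 and Cyc1. The second probe set of Cyc1 gave 4665, 3589.9 and 3537 and that of Atp5c1 gave 4688, 3384 and 3567. For Ndufa3 the brightest gave 4612, 6171 and 5556 and the second 249.9, 345 and 23.0, a fall on array 3 that the brightest did not show. The second probe sets of Ndufb2 and Ndufv2 gave 3923, 5429 and 3845, and 439.7, 394 and 526. For Atp5d the other 3 with a mean above threshold gave 1518, 1154 and 990.4, then 719, 505 and 712, and 172, 155 and 205. Of the 73 brightest probe sets, 18 had a suffix other than the plain one, which marks probes that may be shared between related sequences or were chosen under relaxed rules.

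**Figure D2:**
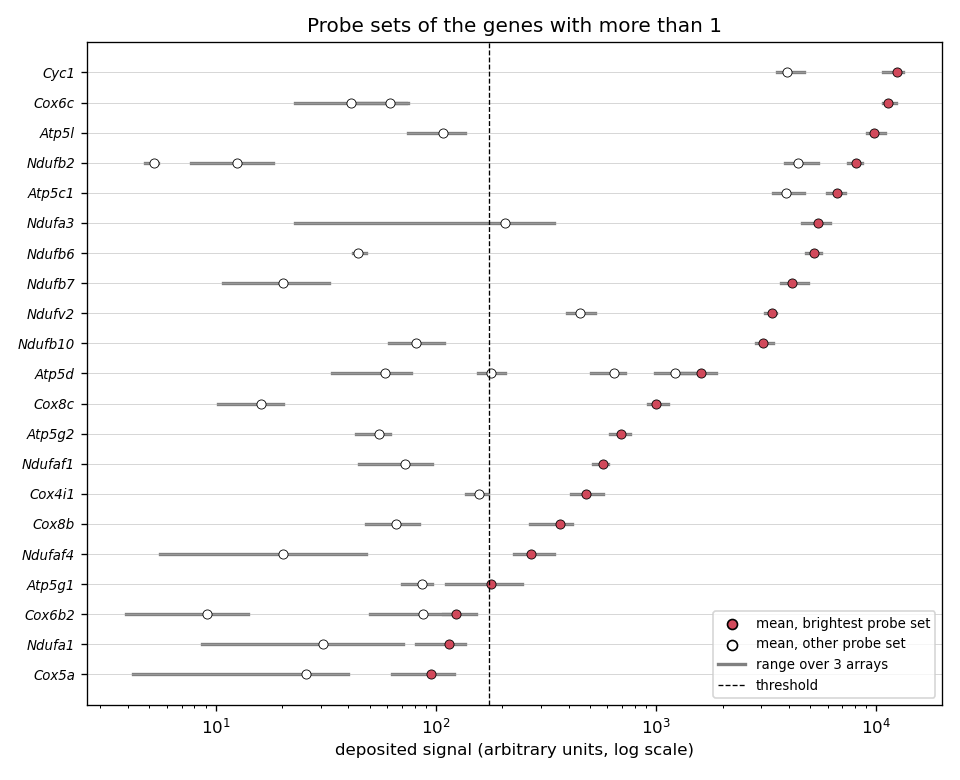
Deposited signal (arbitrary units, log axis) of each probe set of the 21 genes with more than 1. Filled points are means of the brightest probe set, open points are means of the others, bars span the 3 arrays, and the dashed line is the threshold of 175. In 14 genes the probe sets fall on both sides of the line.

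The spread between arrays was small for most of these genes. Each array was scaled to a common median and log2-transformed for this purpose, and each gene was taken at its brightest probe set. The ratio of the highest to the lowest array was under 1.5 in 49 of 64 measured members. The median SD of log2 signal was 0.19 for the members and 0.25 for all 4876 measured named genes, and these medians were not matched on signal level. The members' value depended on array 2: it was 0.094 without it, 0.22 without array 1 and 0.17 without array 3. By complex it was 0.20 for complex I, 0.18 for complex II, 0.18 for complex III, 0.20 for complex IV and 0.16 for complex V. A range over 2-fold was seen in 4 of 64 members (6.25%), Uqcrc1, Ndufa9, Atp5pb and Atp5g1, against 10.2% of all measured named genes. Without array 2 there were 0 such members.

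Whether any member varied more than other probe sets at its level was tested with limma, as an upper-tail test of each variance against an intensity-dependent prior. This takes the level of each gene into account. With Benjamini-Hochberg adjustment over 6218 probe sets, 0 of 64 members passed 0.05, against 1 probe set overall (0.0161%). In limma, 2 of 64 members had an unadjusted p under 0.05, against 4.57% of measured named genes and 5.21% of measured probe sets. These were Uqcrc1, with an adjusted p of 0.861 in limma, and Ndufa9, with an adjusted p of 0.899. Their log2 ranges were 1.23 and 1.08. Without array 2 that count was 0, and without array 3 it was 4, with Ndufv1 and Atp5e added. With all arrays kept and cyclic loess scaling it was 4 as well, the same genes. The background shares of these alternatives are not given here. In the main setting a share of 3.12% of members is near the background, so the test did not set them apart there. Members were counted at their brightest probe sets, which leaves out the second probe set of Ndufa3. That probe set had a mean of 206, a log2 range of 2.84 and, in limma, an unadjusted p of 0.0275 and an adjusted p of 0.899.

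**Figure D3:**
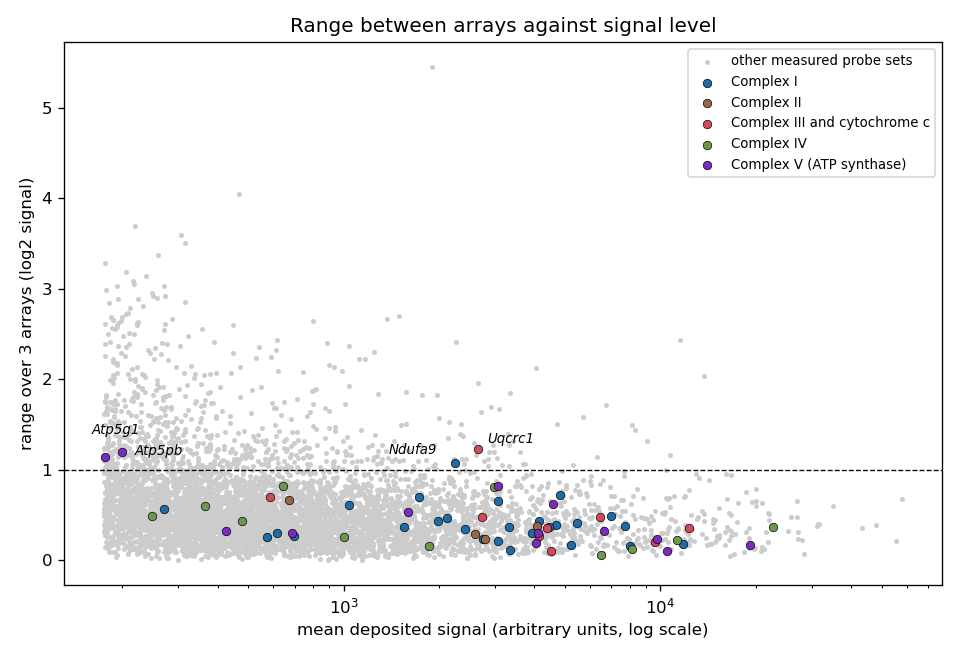
Range over the 3 arrays (log2 signal, scaled) against mean deposited signal (arbitrary units, log axis) for measured probe sets. Members are coloured by complex and drawn only at their brightest probe set, so their other measured probe sets are not shown. The dashed line marks a range of 1, which is 2-fold. The 4 labelled members, Uqcrc1, Ndufa9, Atp5pb and Atp5g1, lie above it and the other 60 below.

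The members were more often highest on array 2 and lowest on array 3 than genes in general. Array 2 was the highest for 29 of 64 members (45.3%), against 32.6% of all measured named genes, and array 3 was the lowest for 28 (43.8%), against 27%. Array 3 was the highest for 20 members (31.2%), against 38.6%, and array 1 for 15 (23.4%), against 28.8%. Array 2 was the lowest for 22 (34.4%), against 43.1%, and array 1 for 14 (21.9%), against 29.9%. These shares are descriptions, since genes on the same arrays are not independent. The sizes were small. A shift is the log2 signal on one array less the average of the remaining pair. For the members the median shifts on arrays 1, 2 and 3 were -0.05, 0.07 and -0.01, and for all measured genes 0.00, -0.06 and 0.06. The gap between the members' median and that of all genes was thus -0.05 on array 1, 0.13 on array 2 and -0.07 on array 3. On array 2 it was between 0.06 and 0.16 under every alternative scaling, floor, threshold and probe-set choice, and from 0.08 without array 3 to 0.13 without array 1. On array 3 it ran from -0.13 with cyclic loess to -0.01 with no filter on low values, and was -0.13 without array 1 and -0.07 without array 2. On array 1 it ran from -0.06 to -0.01, and its sign depended on the arrays kept, at 0.07 without array 2 and -0.08 without array 3.

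The median shift on array 2 had no common sign over the complexes, and the differences between complexes were not tested. It was 0.07 for complex I, 0.22 for complex II, 0.11 for complex III, -0.11 for complex IV and 0.01 for complex V. A shift over 0.5 on array 2 was seen in 8 members (12.5%), against 12% of all genes. These were Uqcrc1, Ndufa9, Ndufv1, Ndufa2, Ndufv3, Atp5pb, Atp5g1 and Atp5e. A shift under -0.5 was seen in 4 members (6.25%), against 13.3%, namely Cox6a2, Cox7b, Cycs and Ndufab1. Array 2 had a Gapdh 3'/5' signal ratio of 1.21, against 3.99 and 3.94 for arrays 1 and 3, and an Actb ratio of 1.86, against 2.57 and 3.50. These ratios fall as more full-length RNA reaches the array. The 6 choroid plexus and ependyma markers summed to 3879, 7580 and 2360.1, and the 4 of them with a mean above threshold had a median array 2 shift of 0.75. Ttr alone gave 1334, 4257 and 94.2, and was the 1 probe set that passed the limma variance test (adjusted p 0.049). Array 2 shifts were 3.56 for Ttr, 1.13 for Foxj1, 0.37 for Igf2 and 0.27 for Kl. With means under threshold, Folr1 shifted by 1.94 and Aqp1 by -1.40. On array 2 the median shift was 0.48 for 5 microglia markers above threshold, 0.29 for 4 of oligodendrocytes, 0.03 for 5 of astrocytes and -0.09 for the 3 of CA1 pyramidal cells. Among the microglia markers Csf1r went the other way, at -0.55. The other 3 of these lists were mixed too. Astrocyte markers ran from -0.59 for Gfap to 0.72 for Aqp4, and CA1 markers from -0.38 for Dcn to 0.48 for Pou3f1. Oligodendrocyte markers ran from -0.15 for Mobp to 0.88 for Mag. The median shift on array 2 was 0.36 for 3 striated muscle markers, 0.16 for 2 dentate, 0.06 for 3 CA3 and CA2, -0.06 for 4 interneuron and -0.18 for 2 endothelial markers. Lists with 1 marker above threshold gave 0.56 for testis germ cells, -0.05 for blood and -0.21 for brown fat. The part of RNA quality and of other cell types in the shifts was not tested.

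**Figure D4:**
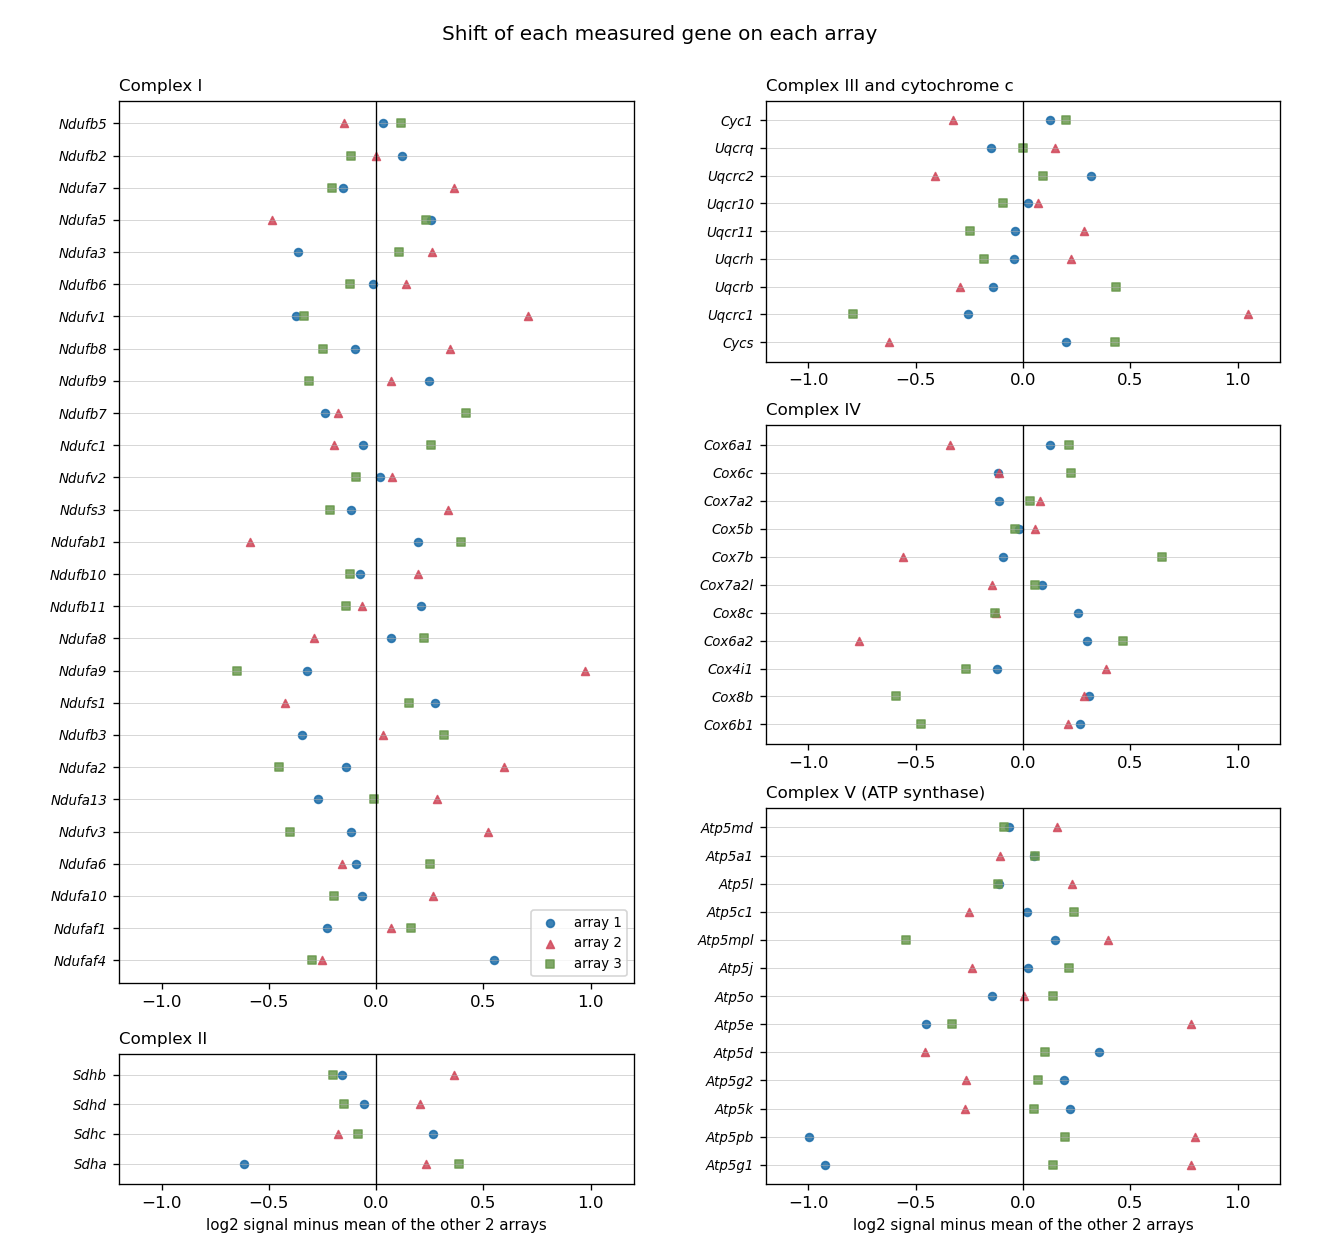
Shift of each measured member on arrays 1, 2 and 3 (log2 signal less the average of the remaining pair of arrays), by complex and ordered by mean signal. Array 2 lies right of 0.5 for 8 genes, led by Uqcrc1 and Ndufa9, and left of -0.5 for 4 genes, led by Cox6a2.

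Other genes of mitochondrial energy supply came from a list of 64, of which 34 had a probe set. Of these, 25 were above threshold by their mean, 0 of 25 passed the variance test after adjustment in limma (the background above was 0.0161% of probe sets) and 2 had an unadjusted p under 0.05, Ckb and Esrra. The 8 genes of the assembly factor list with a probe set were above threshold in each replicate. Among them were the copper chaperone gene Cox17, at 3706, 2862 and 3179, and Surf1, needed for complex IV assembly, at 1300, 1092 and 1081. The list also took in Hcfc1, which encodes a transcriptional regulator and not an assembly factor. Tmem70, an assembly factor of complex V, gave 953, 871 and 534, lowest on array 3.

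Of 13 carrier, channel and kinase genes 9 were above threshold on every array. The adenine nucleotide carrier gene Slc25a4, which exchanges ADP for ATP, gave 14192, 13606 and 14865, and Atpif1, the inhibitor of ATP synthase reversal, gave 7838, 6168 and 8682. Ckb, the brain cytosolic creatine kinase gene, gave 7195, 14448 and 5594, high on array 2. The mitochondrial creatine kinase gene Ckmt1 gave 758, 1241 and 919, also highest on array 2. Of 13 regulators of mitochondrial biogenesis 5 were above threshold on every array and 5 were under it on every array. Esrra, a nuclear receptor that acts with PGC-1 coactivators, gave 622, 1281 and 628, high on array 2. Ppargc1a, which encodes PGC-1 alpha, gave 226, 146 and 217, above threshold on arrays 1 and 3. Gabpa and Gabpb1, the subunits of GABP, gave 168, 176 and 242, and 196, 273 and 173, each with 1 array under threshold. Tfam, which packages mitochondrial DNA, was under threshold at 19.5 ± 7.74 (mean ± SD, n = 3).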

How the data were processed

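The authors deposited 1 linear signal intensity per probe set and array, for 12488 probe sets on 3 arrays. How they were computed and scaled is not given in the sources used here. There were 0 columns of other samples. The 66 control probe sets were left out. Probe sets were named by the platform annotation, with symbols checked through Entrez identifiers against the GRCm38.p6 table, and for all 73 members the 2 agreed. A probe set was measured when its mean exceeded 175, the median of all values. Arrays were scaled to a common median over 6218 measured probe sets, floored at 47.5, the 25th percentile, and taken to log2. A gene was represented by its brightest probe set. The variance test used limma 3.58.1 in R 4.3.3 (robust intensity-dependent prior, tails winsorised at 0.05 and 0.1, one-sided F probabilities, Benjamini-Hochberg threshold 0.05). It was also run on simulated data, with planted shifts larger than any range of the members at their brightest probe sets. That run cannot show whether spreads of the members' size would be found. The number of arrays limits the precision. Members, lists, motif strings and the rule for named genes were chosen with earlier results of these data known. The NRF-1 string replaced a longer one after the shares of both had been seen. The naming rule gives values on every array for the 4 members of each complex with the highest signal and the 3 with the widest range, isoform pairs, members under threshold or with several probe sets, and members at an unadjusted p under 0.05; a gene named outside it was chosen after its values were seen. Alternatives covered scaling, floor, threshold, probe-set choice, symbol source, the prior and leaving out each array. Sequences are from RefSeq.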

Additional observations from a re-analysis of the deposited data

How the results depend on the processing

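The count of members above threshold was 64. It was 49 with plain-suffix probe sets only, where fewer member genes remain, and 73 with no filter on low values, where every member counts. These 2 ends do not measure the stability of the count. With 1 array left out it was between 62 and 64. The count of members past the limma variance test was 0 in every alternative except with no filter on low values. There it was 2, Cox7a1 and Cox8a, both under threshold, and the count for the other mitochondrial genes was 1, Slc25a3, also under threshold. In that setting many probe sets sit at the floor on all arrays, and 1375 probe sets passed. With 1 array left out both counts were 0 each time. The count of members at an unadjusted p under 0.05 in limma was 2 and ran from 0 to 4 under the alternatives. The members with a range over 2-fold numbered 4. There were 2 at the threshold of the 75th percentile, where fewer genes were counted, and 0 to 2 with 1 array left out, 0 without array 2. Ndufa9 and Uqcrc1 remained without array 1, and Atp5g1 and Atp5pb without array 3. With 1 array left out the median shifts ran from -0.04 to 0.02 on array 1, 0.04 to 0.05 on array 2 and -0.05 to -0.02 on array 3, and the median SD from 0.094 to 0.22. In the other alternatives the median shifts ran from -0.07 to 0.00 on array 1, 0.04 to 0.16 on array 2 and -0.13 to 0.00 on array 3, so on arrays 1 and 3 the sign was not stable, and the median SD ran from 0.17 to 0.20. The lowest adjusted p in limma over all settings was 0.54 for Uqcrc1 and 0.57 for Ndufa9. No paired analysis was possible because there is only 1 group.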
